A study of Mus musculus with 8 samples.

Results

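The colon of mice that received bovine colostrum-derived extracellular vesicles (EVs) was compared between the high and the low dose, by the ratio of 2 RNA libraries. Of 45777 genes in the table, 8928 had 5 FPKM or more in at least 1 of the 2 libraries and were kept. FPKM counts the fragments of a gene, divided by the length of its transcript and by all fragments mapped in the library. Each gene's ratio is log2((FPKM + 1)/(FPKM + 1)), high dose over low dose, so a positive value means a higher level at the high dose. The study held 8 libraries, 1 per group, from liver and colon of control mice, mice with non-alcoholic steatohepatitis (NASH) and mice given either dose. Both EV groups were taken to have NASH because the design text describes the animals as a model of that disease. Strain, sex, age, diet, the amounts and route of the doses, the time of treatment and any pooling of animals were not stated in the labels. With 1 library a side there is no error and no test on any value below, and how far animals of 1 group differ is unknown. The colon control and NASH libraries are given beside the pair as 2 further single libraries.

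EVs are membrane-bound particles that cells shed, and those of colostrum, the first milk, reach the gut when swallowed. The colon epithelium renews itself from crypts, whose goblet cells secrete mucus and antibacterial proteins while absorptive colonocytes take up water, salt and metabolites. Bile acids that pass the end of the small intestine reach the colon, where they are sensed and carried by a small set of receptors and transporters. Pancreas and fat lie beside the gut in the abdomen, and their genes are marked below as possible neighbouring tissue.

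The libraries carried the genes of colon. Hoxb13, a homeobox gene of the hindgut, stood at 134 FPKM in control, 114 in NASH, 139.5 at the low dose and 131 at the high dose. Of 16 hepatocyte markers 13 were not kept, and the list summed to 42.3 to 66.2 FPKM per library. The NASH colon library stood apart from the other 3 in genes of seminal vesicle and prostate, which summed to 16837 FPKM there and to 456 to 594 elsewhere, nearly all of it Spink1 in those. It was also the only 1 of the 4 with Ucp1, the uncoupling protein of brown fat, at 15.2 FPKM, which was listed at 0 in the others. Summed FPKM was 916950 at the low dose and 797063 at the high dose, of which small RNA genes held 53.0% and 50.7%.

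At the high dose 78 genes (0.874% of those kept) were 2-fold or more higher and 62 (0.694%) were 2-fold or more lower than at the low dose. A gene under 5 FPKM in 1 of the 2 libraries was kept through the other alone, so its direction followed from the filter. Among higher genes named below this held for Mptx2, Tff2, Pla2g2a, Creb3l1, Col1a1, Hoxa3, Muc4 and others. Among lower ones it held for Reg3g, Retn, Adipoq, Fabp6, Nts and others. The median gene lay at 0.05, the quartiles at -0.14 and 0.22, and 56.8% of the genes kept had a ratio above 0 and 43.2% below. In liver, the same contrast placed 36 of 6873 genes (0.524%) 2-fold apart in either direction. Nearest to the limits, Igkv6-17 at 1.003 and Ighv1-74 at 1.005 lay just inside and Meg3 at 0.994 and Igkv3-1 at 0.998 just outside. On the lower side Snora41 and Igkv16-104, both at -1.01, lay inside and Snord99 and Gm52922, both at -0.98, outside. Scaling each library to the same summed FPKM would move the median gene from 0.05 to 0.23, with 129 genes then higher and 40 lower, so that 76.3% of the genes apart were higher in place of 55.7%. List medians scaled to the same sum are to be read beside that 0.23. The few small RNA genes named above made up 53.0% of the low-dose and 50.7% of the high-dose sum used for that scaling. Sums over protein-coding genes alone lay closer together, at 393140 FPKM at the low and 359768 at the high dose. Relative to genes of like transcript length, described further on, 39 protein-coding genes were higher and 17 lower, 69.6% of them higher. The genes 2-fold higher as deposited included 28 digestive enzymes and related genes of the pancreas and 26 variable segments of antibodies. The lower genes included 17 such segments, 4 white fat markers and 4 globin genes.

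**Figure D1:**
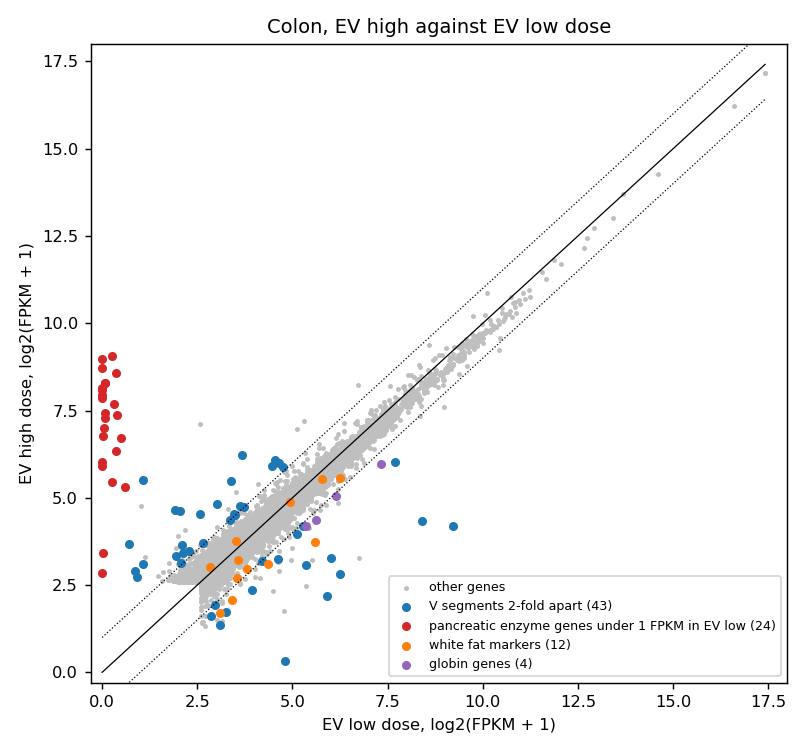
Each point is 1 of the 8928 genes kept, with log2(FPKM + 1) at the low dose on the horizontal axis and at the high dose on the vertical axis; the solid line marks equal levels and the dotted lines 2-fold. Red points are the 24 pancreatic enzyme genes under 1 FPKM at the low dose, blue points the 43 variable segments and segment pseudogenes 2-fold apart, orange points the 12 white fat markers and purple points the 4 globin genes.

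Genes of pancreatic acinar cells, which make and secrete the digestive enzymes, were far higher at the high dose. Of 30 listed markers 24 were kept, 21 of these were 2-fold higher and 0 were lower. Of the 24, 17 lay under 1 FPKM at the low dose, with 7 of them listed at 0 there. These 17 stood between 39.0 and 530.2 FPKM at the high dose, with a median of 244. In control they ranged from 1.26 to 13.1 FPKM (median 4.18) and in NASH from 0 to 11.8 (median 0.205). The high-dose library held them at 14.7 to 124 times the control level, with a median of 35.6. These 17 passed the 5 FPKM limit through the high-dose library alone, so that library had to lie above the low dose for them, and their count is no support. All 17 were also higher at the high dose than in control and NASH, which a choice by high values at the high dose favours too. Control and NASH took no part in the choice, and 16 of the 17 were higher in control than in NASH.

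Prss2, a trypsinogen on chromosome 6, had 6.36 FPKM in control, 0.265 in NASH, 0 at the low dose and 499.9 at the high dose. Ctrb1, a chymotrypsinogen, had 10.8, 0.190, 0.199 and 530.2 FPKM in the same order. Pnlip, the pancreatic lipase that splits dietary fat, had 9.73 FPKM in control, was listed at 0 in NASH and at the low dose, and had 417 at the high dose. All these genes showed the same order, with the high dose above control and control above the other 2. The elastase Cela2a followed it with 11.4, 0.269, 0.293 and 379 FPKM. The carboxypeptidase Cpa1 had 3.60, 0.176, 0 and 232 FPKM. Cel, the bile-salt-activated lipase, had 4.31, 0.193, 0 and 244 FPKM. Amylase, which digests starch, was represented by Amy2a5 at 13.1, 0.157, 0.0500 and 311 FPKM. Rnase1, a secreted ribonuclease, broke the order, since it had 1.26 FPKM in control and 11.8 in NASH, with 0.194 at the low and 42.9 at the high dose. Because the low-dose values were near 0, their log2 ratios depend on the 1 FPKM that was added. The median over the 24 markers was 6.60 and would be 8.92 with 0.1 FPKM added and 4.67 with 5 FPKM.

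The members above 1 FPKM at the low dose behaved less uniformly. Gp2, a membrane protein of the enzyme granules, had 1.07 FPKM in control, 0.636 in NASH, 1.02 at the low dose and 25.9 at the high dose. Like the genes under 1 FPKM, Gp2 passed the 5 FPKM limit through the high-dose library alone, so its direction is no support either. Clps, the cofactor of pancreatic lipase, had 72.3, 8.93, 34.0 and 124 FPKM (1.84). Pnliprp2, a lipase-related protein, had 62.2, 1.03, 10.4 and 34.8 FPKM (1.65), so control was above the high dose. Cela1, an elastase also listed at high levels in all 4 libraries, had 147, 82.1, 104 and 298 FPKM (1.51). Zg16, which goblet cells also make, had 3236, 1668, 4287 and 3314 FPKM and a ratio of -0.37. Sycn had 1485, 359, 609 and 634 FPKM (0.06), and Spink1 had 456, 387, 594 and 555 (-0.10). Among 10 markers of the endocrine pancreas, Ins1 and Ins2, the insulin genes, were listed at 0 in all 4 libraries. Only Sst, Ppy and Gcg were kept, none was 2-fold apart, and enteroendocrine cells of the gut also make these hormones.

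A further 7 enzyme genes outside the list showed the same pattern and were picked out after their values were seen. Amy2a1 had 173 FPKM at the high dose and 0.0519 at the low dose, Amy2a3 156 and 0.0459, Amy2a4 127 and 0.0339, and Amy2a2 108 and 0.0231. The trypsinogen-like 2210010C04Rik had 63.7 FPKM at the high dose and was listed at 0 at the low dose. Pdia2, the disulfide isomerase of the pancreas, had 9.61 and 0.00977 FPKM. Try10 had 6.23 FPKM at the high dose and was listed at 0 in the other 3 colon libraries. The amylase copies and the trypsinogens are near-identical families, so the split of reads among their members is uncertain. Together the 24 enzyme genes under 1 FPKM at the low dose made up 1.34% of the FPKM of protein-coding genes at the high dose. The same share was 0.0319% in control, 0.0047% in NASH and 0.0007% at the low dose. These genes were picked as low at the low dose and passed the filter only through the high dose. The shares of both doses therefore follow in part from the picking. All 30 listed markers, whatever their level, summed to 5552 FPKM in control, 2522 in NASH, 5642 at the low dose and 9173 at the high dose. Of the low-dose sum Zg16 held 4287 FPKM, Sycn 609 and Spink1 594, and of the high-dose sum 3314, 634 and 555. None of these genes was 2-fold apart. Whether pancreatic tissue was in the piece of colon taken was not tested. In bulk tissue, fewer cells of a type and less RNA per cell cannot be told apart.

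**Figure D2:**
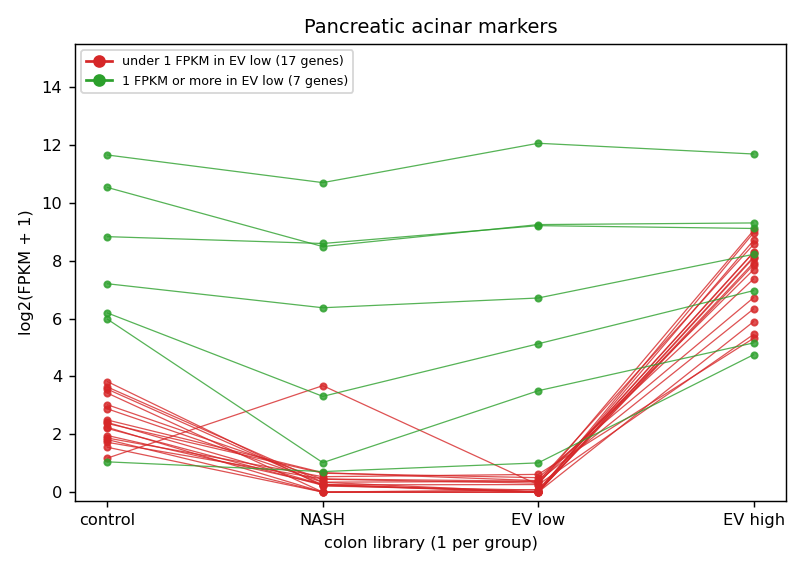
Each line joins the log2(FPKM + 1) of 1 pancreatic acinar marker across the 4 colon libraries, which are separate animals or pools and have no order in time. The 17 red genes lie under 1 FPKM at the low dose and between 39.0 and 530.2 at the high dose, while the 7 green genes are at 1.02 FPKM or more at the low dose.

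Acinar genes are known to be driven through a promoter element in which an E-box and a TTTCCC box lie close together, bound by the PTF complex. The 250 bases upstream of the start were therefore searched for CANNTG at 8 to 25 bases from TTTCCC or its reverse complement GGGAAA, on both strands. RefSeq windows of GRCm38.p6 were matched for 15 of the 17 genes, and 2 of them, Cel and Cpa1, held the pair. Among genes kept with a window 3.52% held it, and among all 32851 windows 3.35%. These upstream windows are shown because the genes were higher together; Cel lies at chr2:28563404-28563653 on the minus strand and Cpa1 at chr6:30638968-30639217 on the plus strand. Capitals mark the matched letters, 5′ to 3′.
Cel: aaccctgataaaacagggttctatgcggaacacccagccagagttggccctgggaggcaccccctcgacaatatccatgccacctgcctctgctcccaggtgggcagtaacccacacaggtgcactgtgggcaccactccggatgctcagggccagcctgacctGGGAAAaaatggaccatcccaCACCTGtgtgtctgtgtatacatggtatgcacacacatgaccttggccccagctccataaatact
Cpa1: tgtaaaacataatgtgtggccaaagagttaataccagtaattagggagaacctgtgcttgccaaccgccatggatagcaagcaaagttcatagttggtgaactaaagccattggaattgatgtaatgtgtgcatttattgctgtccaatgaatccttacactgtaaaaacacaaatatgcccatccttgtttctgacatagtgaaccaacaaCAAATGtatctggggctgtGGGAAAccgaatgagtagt
The other 13 windows did not hold these letters in this spacing, which says nothing of binding by the factor.

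Some fat genes lay on the other side. Of 20 white adipocyte markers 12 were kept, 4 were 2-fold lower at the high dose and 0 were higher, where 0.694% of all genes kept were lower. The median ratio was -0.76 beside 0.05 for all genes kept. With all 20 markers and no filter the median was -0.32, and with a filter at 20 FPKM -0.48. Cfd, the complement factor adipsin, had 27.7 FPKM in control, 95.6 in NASH, 47.2 at the low dose and 12.4 at the high dose (-1.85). Retn, the hormone resistin, had 3.60, 14.5, 7.62 and 2.26 FPKM (-1.40). Adipoq, the hormone adiponectin, had 5.31, 19.8, 9.63 and 3.16 FPKM (-1.35). In each of them NASH was highest, the low dose second and the high dose lowest. Car3, a carbonic anhydrase abundant in fat and muscle, had 18.6, 46.8, 19.4 and 7.54 FPKM (-1.25). Fabp4, the fatty acid binding protein of adipocytes, had 50.9, 155, 75.7 and 46.3 FPKM and stayed within 2-fold at -0.70. The 20 markers summed to 227 FPKM in control, 541 in NASH, 311 at the low dose and 197 at the high dose. Plin1, the coat protein of fat droplets, was under the 5 FPKM limit in this pair with 1.62 and 0.607 FPKM. The part of adherent fat in these values was not tested.

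The red cell genes were also lower. All 4 globin genes kept were 2-fold lower at the high dose, beside 0.694% of all genes kept, with a median of -1.22. Hbb-bs, an adult beta globin, had 139 FPKM in control, 142 in NASH, 158 at the low dose and 61.3 at the high dose (-1.35). Hba-a1, an alpha globin, had 88.4, 78.0, 69.5 and 32.4 FPKM (-1.08). Hbb-bt and Hba-a2 had ratios of -1.26 and -1.17. Relative to genes of like transcript length only Hbb-bs stayed 2-fold lower at -1.07, with Hbb-bt at -0.98, Hba-a2 at -0.89 and Hba-a1 at -0.80, and scaled to the same sum Hba-a2 stood at -0.98 and Hba-a1 at -0.88. The erythroid list of 5 genes summed to between 315 and 321 FPKM in the other 3 libraries and to 131 at the high dose. In liver its median ratio for the same contrast was 0.06. Paired globin copies share much of their sequence, so values of single copies are uncertain.

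Among antibacterial genes of the epithelium, Reg3b and Reg3g were 2-fold lower and Pla2g2a was 2-fold higher. Reg3b, a lectin that epithelial cells secrete against bacteria, had 42.1 FPKM in control, 684 in NASH, 107 at the low dose and 8.70 at the high dose (-3.48). Its relative Reg3g had 15.8, 42.0, 7.79 and 2.996 FPKM (-1.14, or -0.97 scaled to the same sum). Both stood highest in NASH and lowest at the high dose, below control. Pla2g2a, a secreted phospholipase that attacks bacterial membranes, had 3.18, 0.434, 1.18 and 8.94 FPKM (2.19). It is annotated here as a transcribed pseudogene. Of 18 listed genes of inducible defence 10 were kept and these 3 were 2-fold apart, where 0.874% of all genes kept were higher and 0.694% lower. The median was -0.17, or 0.03 scaled to the same sum. Retnlb, a goblet cell protein toxic to bacteria, had 1386, 149, 658 and 371 FPKM (-0.83). Pigr, which carries IgA across the epithelium, had 406, 407, 263 and 367.5 FPKM (0.48).

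Mptx2, a mucosal pentraxin of the crypt base, was the highest gene outside the pancreatic enzymes. It had 11.2 FPKM in control, 0.859 in NASH, 4.96 at the low dose and 138 at the high dose (4.54). Itln1, an intelectin that binds bacterial sugars, had 72.5, 3.55, 38.5 and 146 FPKM (1.90). Tff2, a trefoil peptide secreted with mucus, had 1.24, 2.53, 2.98 and 13.9 FPKM (1.90). The high-dose library held the highest value of the 4 in all these genes, and NASH the lowest in Mptx2 and Itln1. Mptx2 and Tff2 were in no list and were named for their ratios. Both were kept through the high dose alone, so that library had to lie above the low dose for them. Such a choice also favours the high dose as the highest of the 4. The list of deep crypt secretory cells, with 5 kept of 6, had 0 members 2-fold apart and a median of -0.09, or 0.11 scaled to the same sum. Among its members Spink4, a secreted protease inhibitor, had 1917, 447, 1165 and 1097 FPKM (-0.09), and Reg4, another secreted lectin, had 494, 54.8, 166 and 169 (0.02). Lyz1, the lysozyme of Paneth cells, had 5.55 FPKM at the low and 4.90 at the high dose (-0.15). Ang4, a ribonuclease that kills bacteria, had 2004, 184, 1753 and 1154 FPKM (-0.60).

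Of 20 goblet cell markers 19 were kept, 2 were 2-fold higher and 0 were lower, where 0.874% of all genes kept were higher. The median was -0.11, or 0.10 scaled to the same sum. Besides Itln1, the higher one was Creb3l1, a transcription factor of secretory cells, with 5.21, 15.3, 3.71 and 10.3 FPKM (1.27). Muc2, the mucin that forms the mucus gel, had 1519, 1760, 1097 and 1854 FPKM (0.76). The membrane mucin Muc4 had 8.21, 7.05, 4.51 and 10.2 FPKM (1.02, or 0.74 relative to genes of like length), and Muc3a had 8.81, 39.8, 8.89 and 24.4 (1.36). The annotation also holds Muc3, at 281, 716, 381 and 664 FPKM (0.80), and reads may be shared between these 2 entries. Tff3, a trefoil peptide, had 1604, 982, 2194 and 1672 FPKM (-0.39, or -0.11 relative to genes of like transcript length). The goblet median relative to length was -0.00067.

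Among genes that sense and carry bile acids, Fabp6 and Slc51a were 2-fold lower at the high dose. Of 12 listed genes 7 were kept, these 2 were lower, beside 0.694% of all genes kept, 0 were higher, and the median was -0.77. The median was -0.09 over all 12 with no filter and -0.49 relative to genes of like transcript length. Fabp6, the bile acid binding protein of the ileum, had 2.84 FPKM in control, 22.6 in NASH, 21.6 at the low dose and 4.02 at the high dose (-2.17). Slc51a, a subunit of the exporter on the basal side, had 2.11, 36.9, 23.8 and 7.88 FPKM (-1.48). For both genes NASH was highest and the high dose lay between the low dose and control, while the low dose was near NASH for Fabp6 only. Slc51b, the other subunit, had 15.2, 33.4, 43.2 and 24.8 FPKM (-0.78). Slc10a2, the uptake transporter on the luminal side, had 2.49, 28.1, 19.9 and 11.2 FPKM (-0.77). Nr1h4, the bile acid receptor FXR, was within 2-fold with 27.6, 49.5, 41.4 and 32.6 FPKM (-0.33). Vdr, the vitamin D receptor that also binds a bile acid, had 26.9, 62.5, 35.6 and 49.2 FPKM (0.46). Abcc3, an export pump, had 33.1, 38.6, 32.2 and 38.3 FPKM (0.24).

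Fabp6 and Slc10a2 are also markers of small intestine. In that list of 18 genes 10 were kept, Fabp6 alone was 2-fold apart, and the median was -0.13, or 0.06 scaled to the same sum. Apoa4, an apolipoprotein of enterocytes, went the other way with 0.0534, 1.05, 3.96 and 8.86 FPKM (0.99). S100g, a calcium-binding protein under vitamin D control, had 6.16, 19.1, 30.2 and 8.30 FPKM (-1.75). The gene 1810065E05Rik had 374, 1213, 1368 and 600.0 FPKM (-1.19). In both of these NASH and the low dose were the 2 highest libraries. How far along the colon each piece was cut is not in the labels, and its part in these values was not tested.

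**Figure D3:**
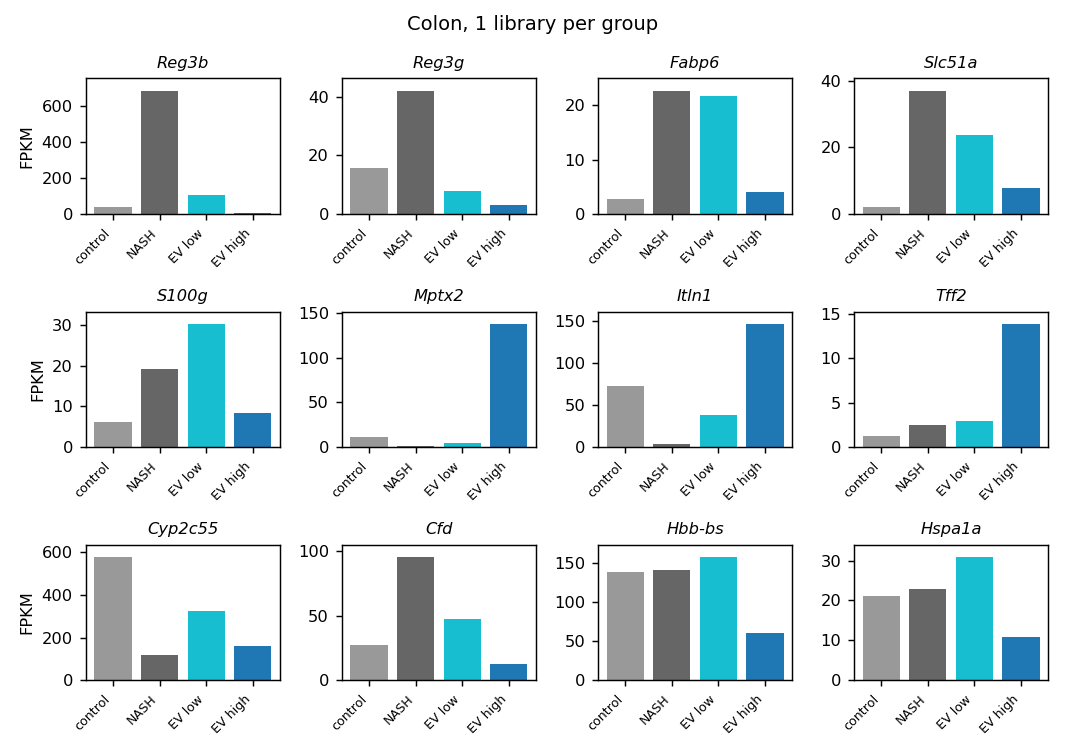
Bars give the FPKM of 12 genes in the 4 colon libraries, 1 library per group, on a separate linear axis from 0 for each gene. Reg3b is highest in NASH at 684 and lowest at the high dose at 8.70, Fabp6 and Slc51a are lower at the high than at the low dose, and Mptx2, Itln1 and Tff2 are highest at the high dose.

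Among enzymes that handle drugs and steroids, 4 were 2-fold lower at the high dose and 0 were higher, of 29 kept of 34. This stood beside 0.694% of all genes kept that were lower. Of the 29, 24 had a ratio below 0, where 43.2% of all genes kept did, and the median was -0.35. Scaled to the same sum 19 of the 29 were below 0, where 19.9% of all genes were. Cyp2c55, a cytochrome of the colon epithelium, had 579 FPKM in control, 120.4 in NASH, 328 at the low dose and 161 at the high dose (-1.02). Cyp4b1, another cytochrome, had 4.25, 28.9, 32.2 and 15.3 FPKM (-1.03). Relative to NASH these genes differed in direction, since the high dose was above NASH for Cyp2c55 and below it for Cyp4b1. Ugt2b5, which joins glucuronic acid to steroids, had 8.83, 8.65, 11.2 and 4.87 FPKM (-1.06). The carboxylesterase Ces1g had 7.43, 12.6, 11.1 and 4.99 FPKM (-1.02). These calls lay near the limit, and relative to like length only Ces1g kept it at -1.01, with Ugt2b5 at -0.99, Cyp4b1 at -0.96 and Cyp2c55 at -0.95. All 4 calls ended after scaling to the same sum, between -0.82 and -0.88. Among other enzymes just within 2-fold, Cyp2c65 and Cyp2d26 both stood at -0.96, Ugt1a1, which conjugates bilirubin, at -0.90 and Ces2a at -0.88.

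Absorptive colonocytes had no marker 2-fold apart among 22 kept of 24, and their median was -0.11, or 0.09 scaled to the same sum. Car1, a carbonic anhydrase of the surface epithelium, had 884, 1169, 1404 and 766 FPKM (-0.87). The water channel Aqp8 had 243, 140, 333 and 195.5 FPKM (-0.77). Of 17 tight junction genes 16 were kept, none was 2-fold apart, and their ratios lay between -0.33 for Cldn4 and 0.38 for F11r. Enteroendocrine markers were near 0 in the median (-0.05, or 0.15 scaled to the same sum, 12 kept of 17). Nts, the gut hormone neurotensin, was the 1 of them that was 2-fold lower, with 4.19, 6.64, 7.08 and 1.84 FPKM (-1.51). Chga and Chgb, the granins of hormone granules, had -0.56 and -0.54, and Insl5, a peptide hormone of the distal colon, had 0.42. Ltc4s, the leukotriene synthase, was the 1 tuft cell marker of 4 kept that was apart, with 2.55, 2.49, 5.15 and 1.67 FPKM (-1.21, or -0.92 relative to genes of like length).

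The stress-induced pair Hspa1a and Hspa1b was 2-fold lower. Hspa1a, a chaperone, had 21.0 FPKM in control, 23.0 in NASH, 30.9 at the low dose and 10.9 at the high dose (-1.42). Its near-identical copy Hspa1b had 28.4, 31.9, 42.0 and 16.5 FPKM (-1.30), and the split of reads between these copies is uncertain. In both the low dose was the highest and the high dose the lowest of the 4 libraries. Their co-chaperone Dnajb1 had 16.5, 16.9, 20.6 and 12.5 FPKM (-0.69). All 15 listed heat shock genes were kept and only Hspa1a and Hspa1b were 2-fold apart, where 0.694% of all genes kept were lower. The median was -0.15, or 0.05 scaled to the same sum. Hspa8, the constitutive relative, had 572, 583, 716 and 573 FPKM (-0.32). The small nucleolar RNAs Snord14c, Snord14d and Snord14e lie within the coordinates of Hspa8 (chr9:40801276-40805202, mm10) and stood at -1.46, -1.76 and -1.46.

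Heat shock factor is known to bind inverted repeats of GAA. The letters GAANNTTC, which read the same on both strands, were found upstream in 6 of the 11 heat shock genes with a RefSeq window. A gene counted if any of its windows matched, as 6.35% of genes kept with a window did. Of all single windows 6.69% matched. The 6 were Dnaja1, Hspa1a, Hspa1b, Hspb1, Hspd1 and Hspe1, of which only Hspa1a and Hspa1b were 2-fold apart. These are not 6 separate matches, since the windows of Hspd1 and Hspe1 overlap on opposite strands and share 1 site, and those of Hspa1a and Hspa1b are near-identical. The 250 bases upstream of these copies are shown because the genes were lower together; Hspa1a lies at chr17:34972157-34972406 and Hspa1b at chr17:34959239-34959488 (GRCm38.p6), both on the minus strand, with the match in capitals.
Hspa1a: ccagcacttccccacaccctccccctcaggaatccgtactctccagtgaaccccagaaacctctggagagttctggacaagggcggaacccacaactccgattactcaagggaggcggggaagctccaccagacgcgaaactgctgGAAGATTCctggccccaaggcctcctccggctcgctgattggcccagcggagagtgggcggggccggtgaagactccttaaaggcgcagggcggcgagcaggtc
Hspa1b: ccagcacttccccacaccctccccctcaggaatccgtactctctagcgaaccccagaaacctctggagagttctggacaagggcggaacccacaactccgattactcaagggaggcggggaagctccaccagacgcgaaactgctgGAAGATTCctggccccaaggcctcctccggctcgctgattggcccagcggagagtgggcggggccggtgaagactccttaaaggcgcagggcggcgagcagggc
The windows differed at 3 of 250 positions and carried the same match.

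Immediate early genes, which cells switch on within minutes of a stimulus, had no member 2-fold apart. Of 24 listed genes 16 were kept, 14 had ratios below 0, where 43.2% of all genes kept did, and the median was -0.50. Scaled to the same sum 11 of the 16 were below 0, where 19.9% of all genes were, and the median was -0.31. Atf3, a stress-induced factor, had 9.25, 11.8, 18.7 and 9.92 FPKM (-0.85). Fos, a subunit of the AP-1 factor, had 57.7, 52.0, 101 and 57.0 FPKM (-0.82). For both, the low dose stood above the other 3 libraries, which lay close together. Klf4, a factor of differentiated epithelium, went the other way with 55.0, 63.1, 49.2 and 75.9 FPKM (0.62). How long after death the tissue was taken is not in the labels.

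Of 30 fibroblast and matrix genes 24 were kept, and 1, Col1a1, was 2-fold higher and 0 were lower. Of the 24, 23 had ratios above 0, where 56.8% of all genes kept did, and the median was 0.46. Scaled to the same sum 23 of the 24 were above 0, where 80.1% of all genes were. Col1a1, a chain of fibrillar collagen, had 9.63 FPKM in control, 6.16 in NASH, 3.16 at the low dose and 7.81 at the high dose (1.08, or 0.87 relative to genes of like length). Col3a1, another fibrillar collagen, had 148, 54.8, 51.2 and 92.1 FPKM (0.84). The proteoglycan Bgn had 11.03, 13.5, 6.48 and 13.0 FPKM (0.90), and fibronectin, Fn1, had 29.6, 22.1, 17.2 and 29.3 (0.74). In all of these the low dose was the lowest of the 4 libraries. Among 17 smooth muscle genes kept, 16 had ratios above 0, beside 56.8% of all genes kept, with a median of 0.25 and none 2-fold apart. Scaled to the same sum all 17 were above 0, beside 80.1% of all genes. Actg2, the actin of gut muscle, stood at 399, 345.5, 320 and 447 FPKM (0.48). The 11 markers of stem and transit cells kept had 0 members 2-fold apart and a median of 0.30, or 0.16 relative to like length and 0.07 with a filter at 20 FPKM, with Sox9, a factor of crypt progenitors, at 3.46, 7.44, 3.11 and 5.54 FPKM (0.67). The 16 cell cycle genes kept had a median of 0.06.

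In several other lists most members kept lay below 0 with none 2-fold apart, beside 43.2% of all genes kept below 0. Among them, B and plasma cells had 8 of 9 below 0 and fatty acid oxidation 16 of 19. Metallothioneins and iron had 8 of 10 below 0, and the unfolded protein and integrated stress response 15 of 20. Scaled to the same sum these 4 lists had 4, 9, 6 and 6 members below 0. Among 26 cytosolic ribosomal protein genes 25 had ratios below 0, with a median of -0.35, and among 24 nuclear genes of oxidative phosphorylation 23 did, with a median of -0.26. All 8 macrophage and dendritic cell markers kept were below 0 (median -0.33), as were all 5 genes of MHC class II (median -0.30). Lyz2, the lysozyme of macrophages, had 109, 94.3, 137 and 98.2 FPKM (-0.47), and H2-Aa, a class II chain, had 87.4, 72.1, 119.7 and 89.6 (-0.41).  The 13 interferon response genes kept had a median of 0.02. Scaled to the same sum, 20 of the 26 ribosomal genes, 18 of the 24 of oxidative phosphorylation, 6 of the 8 macrophage markers and all 5 class II genes were below 0, beside 19.9% of all genes.

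The ratios moved with transcript length. Over 8070 protein-coding genes with a transcript length in GENCODE M21, the median ratio went from -0.18 in the shortest quintile of genes through -0.02, 0.06 and 0.13 to 0.24 in the longest quintile. Spearman's rho between ratio and length was 0.55 across genes, which are not independent replicates and share the same 2 libraries. Genes 2-fold apart in either direction were most frequent in the shortest quintile, with 23 higher and 18 lower there. From the second to the longest quintile there were 9, 5, 1 and 5 higher and 7, 3, 0 and 0 lower. In liver the medians of the same quintiles lay between 0.03 and -0.01 and rho was -0.13. Within the colon, the low dose over NASH showed medians from 0.31 in the shortest to -0.28 in the longest quintile, and the high dose over NASH from 0.13 to -0.04. Over control the medians ran from 0.10 to -0.06 for the low dose and from -0.08 to 0.18 for the high dose, and for NASH from -0.21 to 0.22. The low dose thus lay on one side of control along length and the high dose and NASH on the other.

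Set against genes of like length, most of the lists given here moved closer to 0. The matrix median became 0.30 in place of 0.46 and smooth muscle 0.21 in place of 0.25. Ribosomal proteins became -0.13, oxidative phosphorylation -0.13, macrophages -0.20 and MHC class II -0.15. Bile acid handling became -0.49 and white fat kept its value of -0.76. Immediate early genes stood at -0.47 and drug and steroid enzymes at -0.28. Scaled to the same sum in place of by length, the median of all genes kept was 0.23. Beside it stood 0.64 for matrix, 0.45 for smooth muscle and 0.47 for stem cells. Ribosomal proteins stood at -0.15, oxidative phosphorylation at -0.06, macrophages at -0.15 and MHC class II at -0.11. Bile acid handling stood at -0.58, white fat at -0.57 and drug and steroid enzymes at -0.15. Among single genes, Fabp6 had -1.89, Slc51a -1.52, Reg3b -3.20 and Hspa1a -1.44 relative to their length, while Col1a1 had 0.87, Muc4 0.74 and Hba-a1 -0.80.

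**Figure D4:**
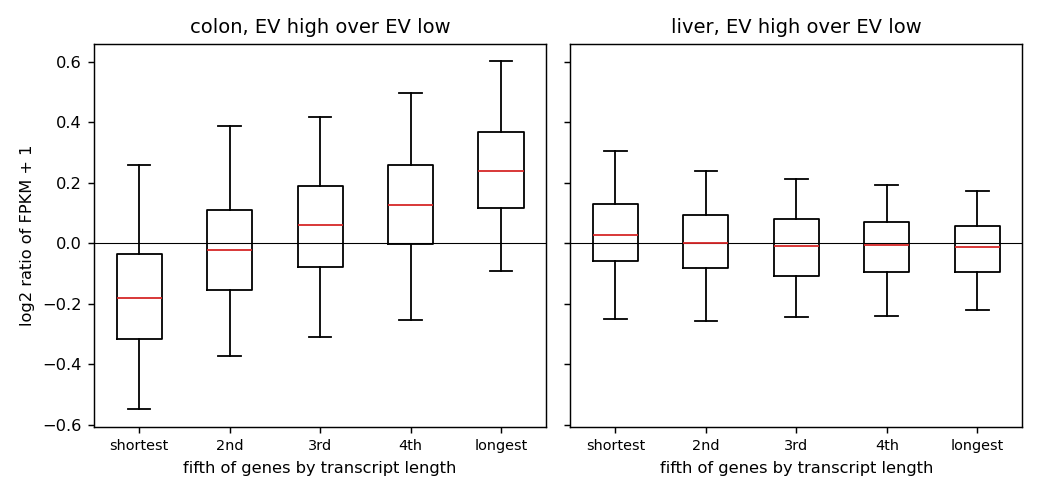
Boxes give the log2 ratio of FPKM + 1, high over low dose, in quintiles of 8070 protein-coding genes by transcript length, for colon and for liver; the red line is the median, the box the quartiles, and the whiskers run from the 5th to the 95th percentile. The colon medians go from -0.18 to 0.24, while those of liver stay between 0.03 and -0.01.

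**Figure D5:**
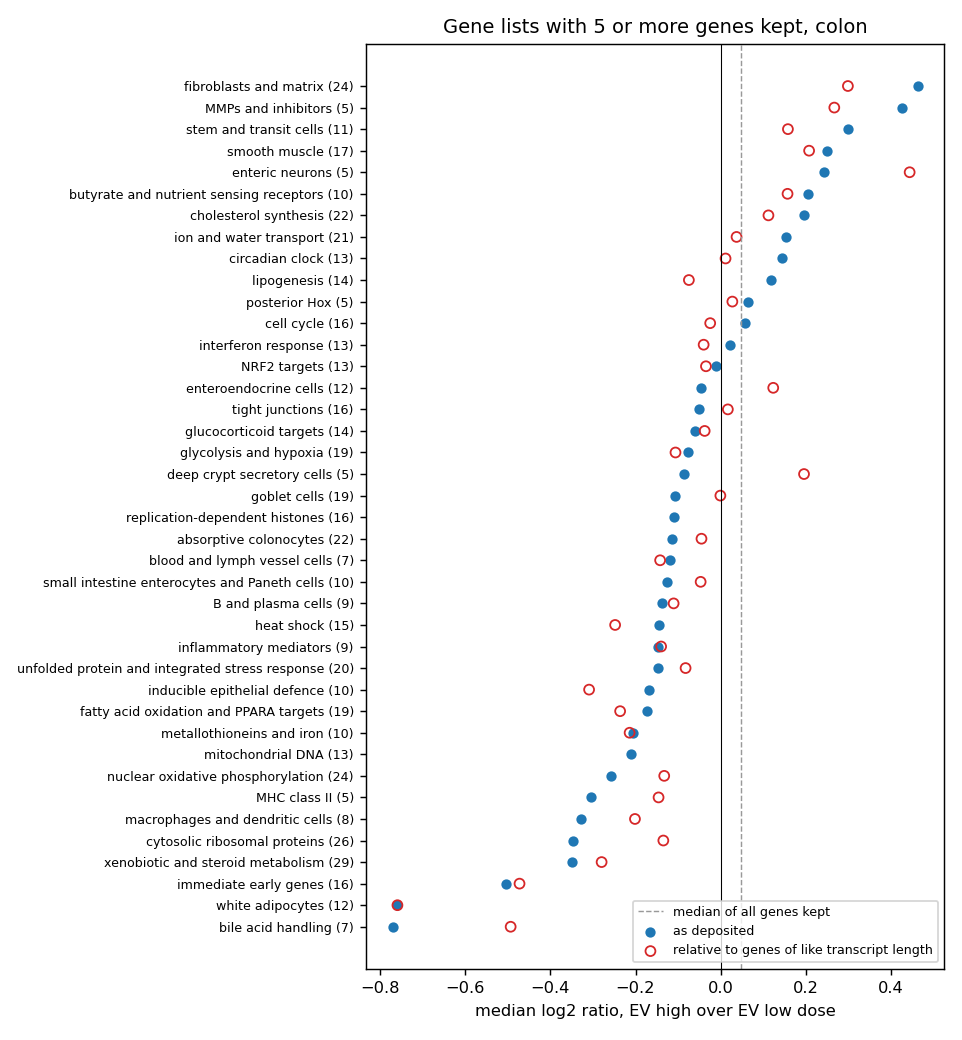
Filled points give the median log2 ratio, high over low dose, of each list with 5 or more genes kept (number in brackets), and open circles the same relative to genes of like transcript length, absent for histones and mitochondrial DNA, which had no matched length. Matrix genes lie highest at 0.46 and bile acid genes lowest at -0.77; the pancreatic acinar list at 6.60 is off the axis and not drawn.

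Antibody variable segments differed far more often than protein-coding genes. Of 129 kept, 25 (19.4%) were 2-fold higher and 16 (12.4%) were 2-fold lower, while 0.521% and 0.351% of 8255 protein-coding genes were. These segments are joined anew in each B cell, so that each clone of B cells carries its own pair. Their median ratio was 0.09. Ighv8-12 had 7.07 FPKM in control, 33.4 in NASH, 592 at the low dose and 17.2 at the high dose (-5.03). Igkv5-43 had 15.1, 18.8, 340.3 and 19.3 FPKM (-4.07). Ighv1-49 was listed at 0 in NASH and had 0.516 FPKM in control, 27.1 at the low dose and 0.250 at the high dose (-4.49). In the other direction Ighv2-4 had 2.99, 4.30, 1.11 and 44.9 FPKM (4.44). At the low dose Ighv8-12 alone held 26.0% of the FPKM of all Ighv segments and Igkv5-43 held 23.9% of all Igkv segments. The top segment of each family held 5.55% to 7.39% and 5.96% to 6.83% in the other 3 libraries. Of 9 constant region genes kept, 0 were 2-fold higher and 2 (22.2%) were 2-fold lower, namely Iglc3 at -1.07 and Ighg1 at -1.08. Within 2-fold, Igha had 1608, 851, 1998 and 1487 FPKM (-0.43) and Igkc had 1427, 879, 1460 and 1246 (-0.23). The segments are short and alike, so the level of a single one is uncertain in such a table.

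Further protein-coding genes lay at the ends of the ranking. Trim17, a ubiquitin ligase, had 5.44, 6.89, 7.87 and 1.79 FPKM (-1.67). Dnase1l2, a nuclease, had 1.35, 12.2, 5.50 and 1.499 FPKM (-1.38). The histone gene H2bc6, the 1 of 16 listed histone genes kept that was apart, had 44.0, 22.2, 72.3 and 27.9 FPKM (-1.34). Pttg1, securin, which restrains the separation of sister chromatids until anaphase, had 18.9, 20.9, 23.9 and 10.1 FPKM (-1.17). Rbp7, a retinol binding protein, stood at -1.18, Eno3, the muscle enolase, at -1.08 and Ankrd37, a gene induced by hypoxia and the 1 of 19 kept in that list that was apart, at -1.04. With libraries scaled to the same sum, Pttg1 stood at -0.98, Eno3 at -0.88 and Ankrd37 at -0.86, and relative to length Rbp7 at -0.89, Eno3 at -0.94 and Ankrd37 at -0.76. On the higher side, the RNA binding protein Pcbp2 had 19.7, 38.5, 16.2 and 41.3 FPKM (1.30). Hoxa3, the 1 of 3 anterior Hox genes kept that was apart, had 3.76, 5.37, 2.06 and 6.34 FPKM (1.26). Eif4ebp2, which restrains cap-dependent translation, stood at 1.14, the vesicle protein Vamp2 and the kinesin Kif21a both at 1.13, Zmiz1 at 1.08 and the kinase Wnk4 at 1.03. Relative to genes of like length, Zmiz1 stood at 0.83, Kif21a at 0.91 and Eif4ebp2 and Wnk4 at 0.92, all under 2-fold.

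Set beside control and NASH, the 2 libraries of the pair differed in how often they lay outside the range of these. Leaving out pancreatic enzymes and receptor segments, 24 genes were higher and 43 lower at the high dose. Of the 24 higher genes the high dose alone lay outside the control to NASH range in 5, the low dose alone in 7, both in 9 and neither in 3. Of the 43 lower genes these numbers were 7, 9, 23 and 4. Among all 8788 genes within 2-fold, the high dose alone was outside in 11.1%, the low dose alone in 28.8%, both in 36.8% and neither in 23.3%. The genes where neither was outside included Fabp6, Slc51a, Cyp2c55, Muc3a and Dnase1l2, and thus ran between control and NASH in both libraries.

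Of the 140 genes 2-fold apart in colon, 27 also reached 5 FPKM in 1 of the 2 liver libraries of the same groups. Of these, 6 were 2-fold apart in liver in the same direction, 0 in the opposite one and 21 stayed within 2-fold. Over all 6873 genes at 5 FPKM or more in liver, 36 (0.524%) were 2-fold apart in either direction. The 6 were Snord14c and 5 pseudogenes, namely Gm8210, Gm13841, Rps7-ps3, Gm6969 and Gm13736. Gm8210 had 18.5 FPKM in control, 2.82 in NASH, 26.6 at the low dose and 2.38 at the high dose in colon. In liver it had 9.31, 1.52, 9.85 and 1.13 FPKM in the same order. In both tissues control and the low dose were high, and NASH and the high dose were low. Rps7-ps3 repeated this order in colon with 36.3, 6.25, 44.3 and 8.33 FPKM and in liver with 11.9, 2.65, 16.1 and 3.53, as did Gm13841. Such copies resemble expressed genes closely, so their reads may come from other loci. The labels do not tell whether liver and colon came from the same animals.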

How the data were processed

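The deposited table gives FPKM, computed by the authors, for 8 libraries of mouse liver and colon in separate columns. Per the labels' protocols, RNA was isolated with TRIzol and RNeasy Plus, and TruSeq Stranded Total RNA Library Prep Gold was the library kit. Per the submitters' processing notes, Trimmomatic 0.38, HISAT2, StringTie and mm10 were used, with roles, order and other versions not given. Read depth is not given in the sources used here, so no interval could be computed. The sample titles gave group and tissue.

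Symbols, biotypes and coordinates were matched by gene identifier to RefSeq GRCm38.p6 for 45679 genes, and 98 were not matched. Ratios were log2((FPKM + 1)/(FPKM + 1)), which understates differences of genes near 1 FPKM, and a ratio of 2-fold or more counted as a difference. No test was run because each group had 1 library. The 55 gene lists and the genes named were chosen with earlier results of these data known. Lists with 3 or more members kept were given a median. Named were the 15 highest and 15 lowest ratios outside predicted genes, receptor segments, small RNAs, pseudogenes and mitochondrial genes, and for each list up to 6 members 2-fold apart, or else the member with the largest ratio and the one with the highest level. The naming was widened to 25 genes at each end, leaving out pancreatic enzymes, after the values were seen, and other members within 2-fold were also picked then. Transcript length was the longest GENCODE M21 transcript, in 20 bins for the length-relative ratio. Alternatives were 2 other pseudocounts, 3 other filters, 4 scalings and the leaving out of gene classes. Code was tested on simulated data. Python 3.11.15, numpy 2.4.6, pandas 2.3.3 and matplotlib 3.10.9 were used.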

Additional observations from a re-analysis of the deposited data

How the results depend on the processing

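The 78 genes higher and 62 lower at the high dose became 50 and 30 with 5 FPKM added, 133 and 104 with no filter and also with a filter at 1 FPKM, and 46 and 36 with a filter at 20 FPKM. Scaled to the same sum they were 129 and 40, and without neighbouring tissue genes 110 and 36, so that 76.3% and 75.3% of the genes apart were higher in place of 55.7%. Without predicted genes, small RNAs, segments and pseudogenes they were 42 and 28. Alternatives added after the data were seen gave 39 and 17 (69.6% higher) relative to genes of like transcript length and 50 and 62 (44.6% higher) without pancreatic enzymes. An added pseudocount of 0.1 FPKM, centring on the median gene, median-of-ratios scaling and leaving out receptor segments kept both counts within 1.5 times. The cause of these shifts was not tested, apart from the fewer or further genes counted under a filter. Of 58 named genes 2-fold apart, 0 changed sign in 597 values and 28 came under 2-fold in at least 1 setting, most often with 5 FPKM added (26 genes) or relative to transcript length (16). Of the 24 lists with medians past 0.18 from 0, 3 medians reached 0 or crossed it. These were the endocrine pancreas at 0 and anterior Hox genes at -0.0062 with no filter, and hepatocyte markers at -0.0039 with a filter at 1 FPKM. Lists with medians nearer 0 were not counted here, and some changed sign scaled to the same sum. Goblet cells went from -0.11 to 0.10 and heat shock from -0.15 to 0.05. No paired analysis was possible because each group had 1 library and the labels give no replicate numbers, and for the same reason no replicate could be left out. Depth is unknown, so it cannot be said which low values are beyond detection.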

Other observations

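The further lists given here had medians between -0.17 and 0.20. Cholesterol synthesis genes had a median of 0.20 (22 kept of 23), and its most abundant member Hmgcs1, the synthase that makes HMG-CoA, had 78.3 FPKM in control, 49.996 in NASH, 56.1 at the low dose and 71.7 at the high dose (0.35). Nutrient and butyrate sensing genes had a median of 0.20 (10 kept of 15), genes of fatty acid oxidation -0.17 (19 kept of 28) and the circadian clock 0.14 (13 kept of 19). None of these lists had a member 2-fold apart. Of 31 small nuclear RNA genes kept, 0 were higher and 1, Rnu11, was lower, at 5.44 FPKM in control, 4.20 in NASH, 11.3 at the low dose and 4.75 at the high dose. Of 78 small nucleolar RNA genes kept, 3 were higher and 5 lower. The snoRNAs SNORD25 and SNORD26, at neighbouring positions on chromosome 19, were higher at the high dose in both tissues, with colon ratios of 1.91 and 1.63 and liver ratios of 1.37 and 1.43, although their liver levels stayed under 5 FPKM.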
